A study of Solanum lycopersicum with 9 samples.

Results

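The peripheral zone (PZ) of the tomato shoot apical meristem was compared with the central zone (CZ), using 3 CEL-Seq libraries of each zone out of 9 libraries in all. The 3379 genes compared were those whose normalized count reached 6 or more in 1 or more of these libraries, out of 34866 genes in the table, of which 21188 had a read in the 6 libraries. The question was which transcripts differ at the first step from the region that holds the stem cells to the region that starts leaves, and which of these differences are seen in all 3 libraries of a zone and not in a single library. All libraries came from seedlings of the M82 line carrying SP+, aged 12–14 days and grown with 11 h of light and 13 h of dark at 21–23 °C. Tissue was cut by laser from cryosections of 10 µm, and each library pooled 3 sections. The zones were recognized by chlorophyll fluorescence, which was not visible in the CZ and visible in the PZ, so they are regions of greening and not zones drawn by a marker gene. The remaining 3 libraries, from the abaxial side of leaf primordia (LP), entered the statistical fit to estimate the spread, and their values are given beside the others. Which seedlings went into a library is not in the labels, so libraries may share plants. The study shows the zones outlined on a single section, so libraries of equal number may be paired. The main fit did not pair them. P-values rest only on the spread between these libraries, which the main fit took from genes of like abundance and not from each gene.

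The shoot apical meristem is the dome of dividing cells from which all shoot organs arise. Slowly dividing stem cells sit in the central zone. Their daughters are displaced sideways into the peripheral zone, where cells divide faster and leaf primordia begin. Plastids are inherited as small undifferentiated proplastids. They turn into chloroplasts when nuclear genes supply antenna proteins, photosystem subunits, carbon-fixing enzymes and plastid ribosomal proteins, which are made in the cytosol and imported.

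The 6 libraries held 51659 to 144665 reads on genes. The deepest was CZ1, and the other 5 held at most 66596. A normalized count of 6 stood for 21 reads in CZ1 and for 8 or 9 reads in each of the others, so the same value carries more counting error outside CZ1. Across genes, log2 values of 2 libraries correlated at 0.649 to 0.698 among the CZ libraries and at 0.528 to 0.578 among the PZ libraries, a description over genes that are not independent replicates. In bulk tissue of this kind, fewer cells that express a gene and less RNA per cell cannot be told apart.

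Few transcripts differed between the zones by more than the spread between libraries usual at their abundance. Genes were called at 1.5-fold or more with an adjusted p of 0.05 or less (limma, Benjamini-Hochberg over the 3379 genes). This was reached by 13 genes (0.385% of those tested), 9 higher in PZ (0.266%) and 4 lower (0.118%), and with TMM scaling by 4 in each direction. With the replicate number as a block in the fit it was reached by 23 genes, 16 higher and 7 lower. All differences given here are of means of log2(normalized count + 1), PZ minus CZ, a scale that understates the change of weakly expressed genes. The median difference over all 3379 genes was 0.08, and −0.14 with TMM scaling over those of them that still reached the minimum. Values near these medians therefore carry no direction. Without PZ2 the number of calls was 4, without CZ3 it was 6, without CZ1 it was 8 and without CZ2 it was 20. The fit gave genes of equal abundance the same variance, and the standard errors given here use it. A gene with a single extreme library could therefore be called. With each gene's own variance none of the 13 genes was called, and 1 other gene was.

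The 13 genes divided by their values. In 8 of them, 5 higher and 3 lower in PZ, the libraries of the zones did not overlap and no library held 80% of the summed value of its zone. The differences of these 8 stayed at 1.38 or more in size without any single library, also where a call was lost. In 4, a single library held at least 80% of it. In the remaining gene the libraries overlapped. The sources used here pair none of these 13 identifiers with a gene name, so their functions are not given, and coordinates are those of the SL 2.5 build as the table lists them.

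**Figure D1:**
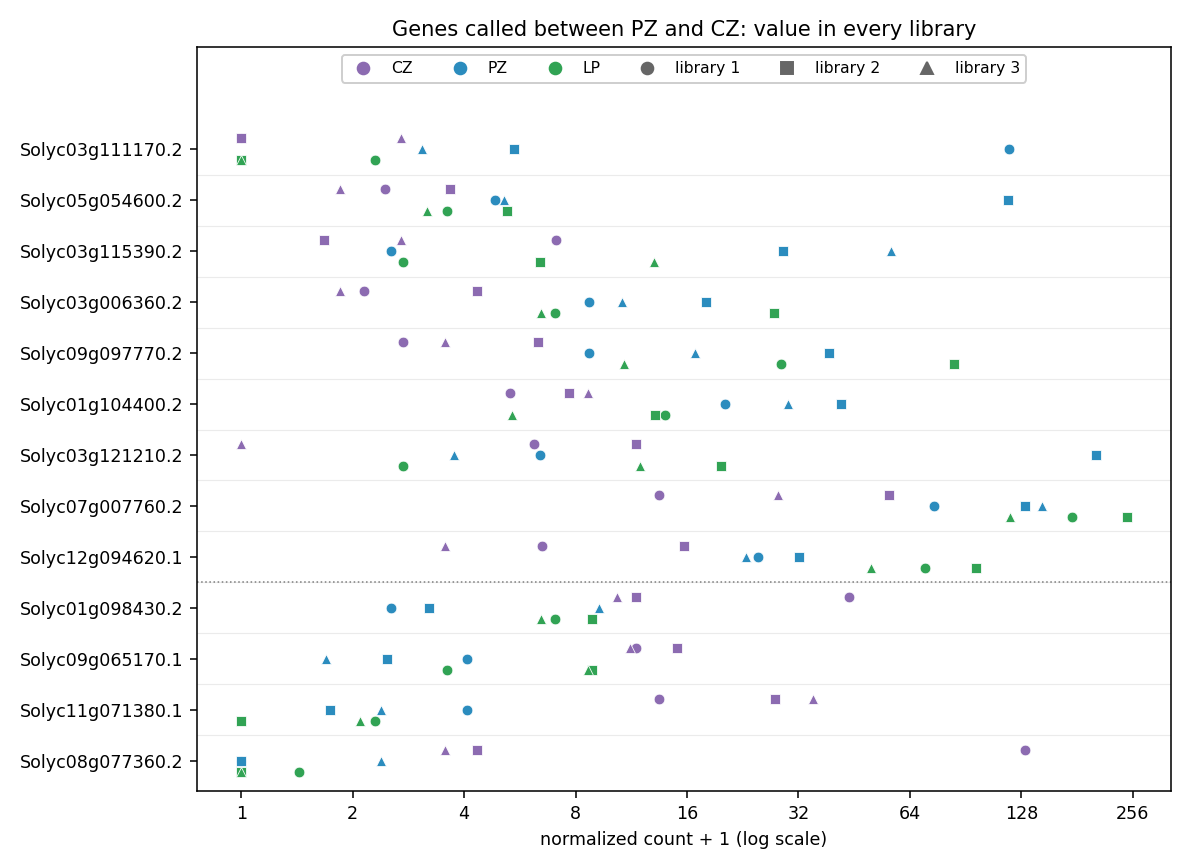
Normalized count + 1 (log scale) of the 13 called genes in every library, with colour for the zone and symbol for the library number; genes above the dotted line were higher in PZ. Solyc07g007760.2 sits at 73.2 to 144.1 in PZ and at 12.4 to 55.4 in CZ, while Solyc03g111170.2, Solyc05g054600.2, Solyc03g121210.2 and Solyc08g077360.2 each have 1 library far to the right of all others.

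The lowest adjusted p was that of Solyc07g007760.2 (chromosome 7, 2394267 to 2396320). Its normalized counts were 12.4, 55.4 and 27.2 in CZ1 to CZ3 and 73.2, 129.6 and 144.1 in PZ1 to PZ3. The lowest PZ library lay above the highest CZ library, and the LP libraries, at 174.9, 245.6 and 118.0, were also above all CZ libraries. The difference was 2.01 (standard error 0.25, adjusted p = 3.6e-12), and it was called in each of the 6 fits that left out a CZ or PZ library and in 20 of 23 alternatives (adjusted p 2.1e-17 to 0.797). This was the single gene of the 13 called in all 6 of those fits. It was not called by DESeq2 (adjusted p = 0.375) or with each gene's own variance (adjusted p = 0.797).

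Solyc12g094620.1 (chromosome 12, 64801796 to 64804044) had normalized counts of 5.48, 14.7 and 2.55 in the CZ libraries and 23.9, 31.1 and 22.1 in the PZ libraries. The PZ libraries were close to each other and all above the CZ libraries; among the latter CZ2 was the highest. Its difference was 1.89 (standard error 0.36, adjusted p = 0.00036), and the call was lost without CZ3 (adjusted p = 0.0874, range over 23 alternatives 8.56e-07 to 0.797). In LP the values were 69.1, 95.4 and 49.2, each above every PZ library.

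Solyc01g104400.2 (chromosome 1, 92774674 to 92777517) was at 4.33, 6.67 and 7.66 in CZ and at 19.3, 40.7 and 29.0 in PZ. All PZ libraries were above all CZ libraries, and the CZ libraries were close together. The LP libraries, at 13.0, 12.1 and 4.37, lay below every PZ library, a course unlike that of the 2 genes above. The difference of 2.05 (standard error 0.45) had an adjusted p of 0.0033 and was also called by edgeR and DESeq2, and the limma call was lost without CZ1 or PZ2 (adjusted p = 0.0639 and 0.149, range 0.000493 to 0.692).

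A further pair of called genes was also higher in every PZ library. Solyc09g097770.2 (chromosome 9, 71790220 to 71791711) was at 1.73, 5.34 and 2.55 in CZ and at 7.71, 37.8 and 15.9 in PZ. Its PZ libraries spread widely, with PZ2 well above the others, and the call (difference 2.18, standard error 0.45, adjusted p = 0.0012) was lost without PZ2 (adjusted p = 0.242, range 3.36e-05 to 0.797). Solyc03g006360.2 (chromosome 3, 957564 to 960186) was at 1.15, 3.33 and 0.85 in CZ, which is 4, 5 and 1 reads, and at 7.71, 17.0 and 9.65 in PZ. The zones were separated, but the call (difference 2.20, standard error 0.56, adjusted p = 0.0317) was lost without CZ1, CZ3, PZ2 or PZ3 (adjusted p 0.106 to 0.323, range 0.014 to 0.797).

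Of the genes that were lower in PZ, Solyc11g071380.1 (chromosome 11, 54875597 to 54876351) was the strongest without a dominating library. Its normalized counts were 12.4, 26.7 and 34.0 in CZ and 3.08, 0.74 and 1.38 in PZ. The CZ values stood for 43, 40 and 40 reads and the PZ values for 4, 1 and 2 reads, so the groups were far apart and the PZ level is known only roughly. The difference was −3.20 (standard error 0.66, adjusted p = 0.0012), it was also called by edgeR and DESeq2, and the limma call was lost without CZ3 (adjusted p = 0.157, range over 23 alternatives 4.42e-06 to 0.337). In LP it was at 1.3 or less, within or below the PZ range.

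Solyc09g065170.1 (chromosome 9, 63090458 to 63093668) had even CZ values of 10.7, 14.0 and 10.2 against 3.08, 1.48 and 0.69 in PZ. All CZ libraries were above all PZ libraries, and the LP values of 2.59, 7.85 and 7.65 were also below every CZ library. This call (difference −2.28, standard error 0.60, adjusted p = 0.0375) held only without PZ1 and was lost without any of the other 5 libraries (adjusted p 0.146 to 0.237, range 0.015 to 0.614), although without them the difference stayed between −1.98 and −2.36. Solyc01g098430.2 (chromosome 1, 88940693 to 88950558) was at 42.7, 10.7 and 9.36 in CZ and at 1.54, 2.22 and 8.28 in PZ. CZ1 was far above the rest and PZ3 nearly reached the lowest CZ library, and the call (difference −2.04, standard error 0.53, adjusted p = 0.0328) was lost without CZ1, PZ1 or PZ2 (adjusted p = 0.631, 0.182 and 0.179, range 0.00581 to 0.797).

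In 4 called genes a single library held most of the sum of its zone. Solyc08g077360.2 had a normalized count of 129.8 in CZ1 (450 reads), with 3.33 and 2.55 in CZ2 and CZ3 and 0, 0 and 1.38 in PZ. CZ1 held 95.7% of the CZ sum. Without it the gene fell below the minimum of 6 and was not tested, and the difference, −3.24 with all libraries, was still 1.55 in size. Solyc03g111170.2 had 117.2 in PZ1 (152 reads), with 4.44 and 2.07 in the other PZ libraries and 0, 0 and 1.70 in CZ. PZ1 held 94.7% of the PZ sum, and again the gene was below the minimum without it, at a difference of 1.55 in place of 3.17. Solyc05g054600.2 had 117.0 in PZ2 (158 reads), with 3.85 and 4.14 in PZ1 and PZ3 and 1.44, 2.67 and 0.85 in CZ, so that 93.6% of the PZ sum lay in PZ2. Without that library it was below the minimum and not tested, and the difference was 0.97 in place of 2.49. In these 3 genes the small values of the remaining libraries still did not overlap, which is why they count below among the genes with separated libraries. Solyc03g121210.2 had 202.1 in PZ2 (273 reads) and 5.40 and 2.76 in the other PZ libraries, within the CZ range of 0 to 10.7. Its difference of 2.03 dropped to 0.24 without PZ2 (adjusted p = 0.954, range 6.17e-05 to 0.967), and the call was also lost without CZ3 (adjusted p = 0.967).

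The adjusted p was 0.0317 for each of these 4 genes with all libraries, at differences of −3.24, 3.17, 2.49 and 2.03 (limma). Among the 3 genes separated between the zones, the call on Solyc08g077360.2 also depended on PZ1 and PZ2, whose removal gave adjusted p = 0.0764 and 0.149 (range 0.000182 to 0.797). Removal of CZ1 or CZ2 gave 0.158 and 0.126 for Solyc03g111170.2 (range 0.000182 to 0.797), and removal of CZ1 or CZ3 gave 0.135 and 0.201 for Solyc05g054600.2 (range 0.000495 to 0.81). The overlapping gene, Solyc03g115390.2, was at 6.06, 0.67 and 1.70 in CZ and at 1.54, 28.1 and 55.9 in PZ. PZ1 lay inside the CZ range and PZ2 and PZ3 above it, and the call (difference 2.35, adjusted p = 0.0207) was lost without CZ2, CZ3, PZ2 or PZ3 (adjusted p 0.108 to 0.651, range 1.52e-06 to 0.821).

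**Figure D2:**
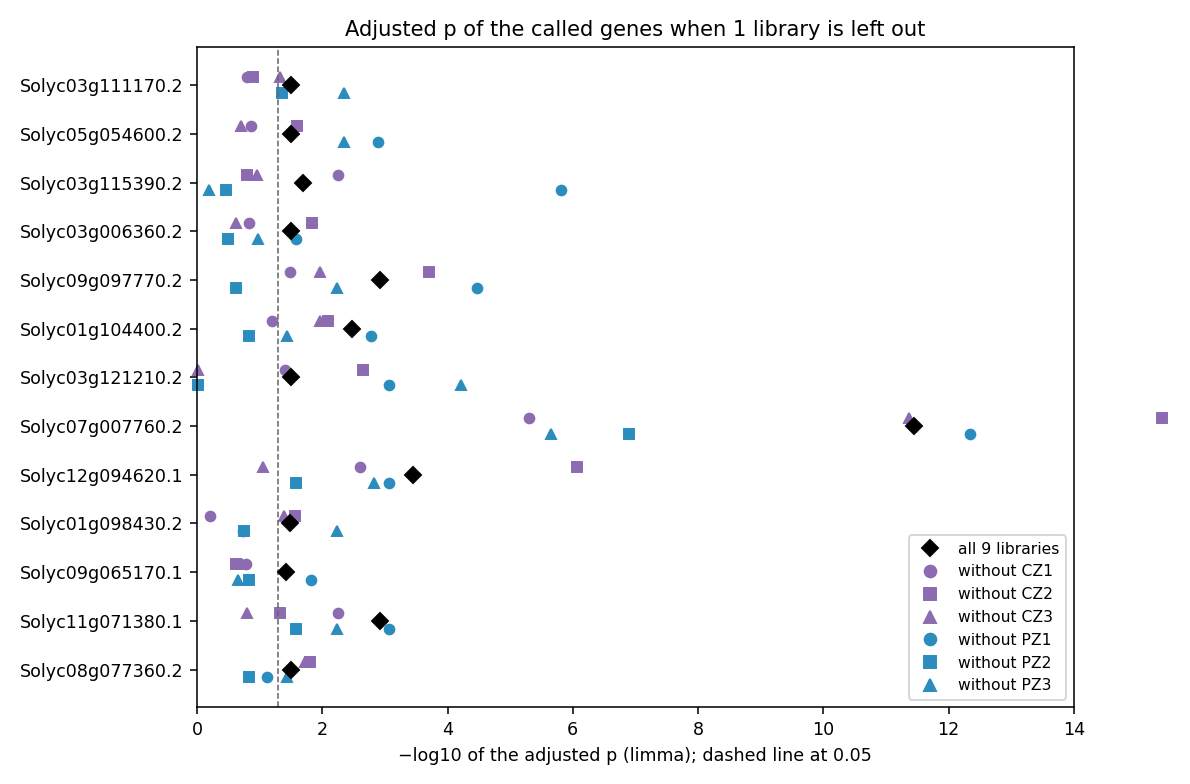
The −log10 of limma's adjusted p for each of the 13 called genes with all 9 libraries (black diamond) and without each CZ or PZ library in turn (coloured symbols); points left of the dashed line at 0.05 are not called, and a gene not tested without a library has no symbol for it. For Solyc07g007760.2 all symbols are right of the line, and for the other 12 genes at least 1 symbol is left of it or absent.

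All 3379 genes were then sorted by how many libraries carried the difference, as a description with no test. In 2022 genes (59.8%) the difference was under 1.5-fold. In 898 genes (26.6%) it was at least 1.5-fold but fell below that, or turned, when 1 of the 6 libraries was left out, so it rested on 1 library (534 higher, 15.8%, and 364 lower, 10.8%). It stayed at 1.5-fold or more without any single library in 206 genes (6.1%) whose libraries overlapped, 136 higher (4.02%) and 70 lower (2.07%), and in 253 genes (7.49%) whose libraries did not overlap. The last set, the differences seen in all 3 libraries of both zones, held 156 genes higher in PZ (4.62%) and 97 lower (2.87%). The balance of directions depended on the scaling: with TMM scaling 76 were higher and 191 lower among the separated genes, 82 and 139 among those that overlapped and 383 and 569 among those that rested on 1 library, the opposite balance in each set, and with equal totals 131 of the separated genes were higher and 126 lower. The libraries of the zones did not overlap in 376 genes (11.1%) whatever the size of the difference, 233 higher in PZ (6.9%) and 143 lower (4.23%). For zones that do not differ, 3 libraries separate from 3 with a probability of about 0.1, the smallest p of an exact two-sided permutation test. The share of 11.1% is near that, so separation by itself is not evidence of a difference between the zones. Among the 253 separated genes 11 were called, and in 5 a single library held at least 80% of the sum of its zone. By limma 138 of the 253 had an unadjusted p of at most 0.05, against 244 of all 3379 (7.22%). The 253 were selected for size and separation in these same libraries, so low p-values among them were partly set by the selection.

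The share of genes that rested on 1 library was lower at higher abundance. Genes of low mean were tested only if at least 1 library reached 6, well above that mean, so the trend was partly set by this minimum. Of 639 genes with a mean normalized count under 3 over the 6 libraries, 40.1% rested on 1 library and 6.89% were separated. Of 225 genes with a mean of 24 or more, 9.78% rested on 1 library, 2.67% (6 genes) were separated and 87.6% were under 1.5-fold. In the bins between, from 3, 6 and 12 upwards, 28.3%, 21.8% and 14.1% rested on 1 library, while 8.77%, 7.71% and 5.56% were separated, so the separated share was highest at a mean of 3 to 6 and not at the lowest abundance. All 13 calls had means of 6 or more.

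**Figure D3:**
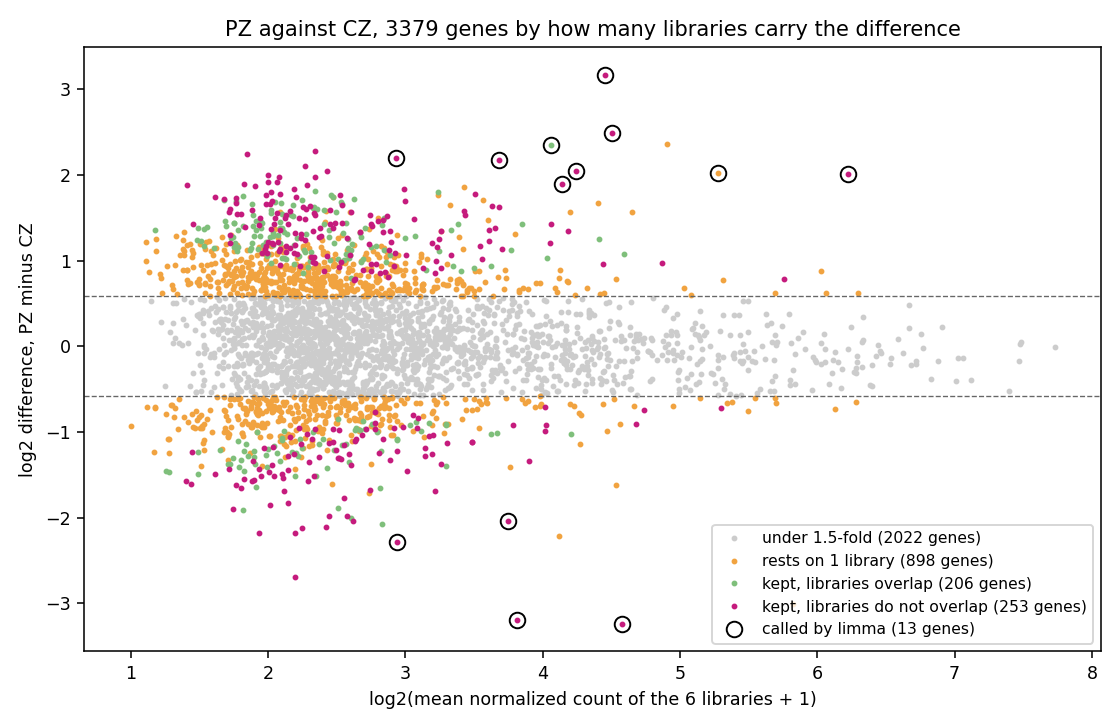
Difference between PZ and CZ (log2 scale, vertical) against the mean normalized count of the 6 libraries (log2 of mean + 1, horizontal) for 3379 genes, coloured by whether the difference rests on 1 library; dashed lines mark 1.5-fold and rings mark the 13 calls. The 898 genes that rest on 1 library lie mostly at the left, and 2022 genes lie between the dashed lines.

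Some transcripts were separated between the zones with little spread although they missed the call. These were chosen after their values were seen. Solyc05g053070.2 was at 19.3, 17.3 and 19.6 in CZ and at 37.0, 39.2 and 37.2 in PZ, so that every PZ library was near the same higher level. Its difference was 0.98 (standard error 0.34, adjusted p = 0.369). Solyc11g066130.1, at 37.8, 41.4 and 35.7 in CZ and 49.3, 84.4 and 70.3 in PZ, was likewise above CZ in every PZ library, with a difference of 0.78 (adjusted p = 0.413). In the other direction, Solyc06g083820.2 was at 35.8, 33.4 and 28.1 in CZ and at 20.1, 15.6 and 15.2 in PZ. The libraries were again apart, with a difference of −0.90 (adjusted p = 0.491). Solyc04g074040.2, less abundant, had even values, 8.94, 9.34 and 9.36 in CZ against 2.31, 2.22 and 2.07 in PZ, the latter standing for 3 reads each. It was not called with the shared variance (difference −1.67, adjusted p = 0.409) and was the 1 gene called when each gene kept its own variance (adjusted p = 0.00237).

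A gene held by a single library was counted when 1 library had at least 80% of the sum of its zone and at least 6 itself. This was so for 333 of the 3379 genes (9.85%). PZ libraries held 242 of these and CZ libraries 96, with 5 genes counted in both zones. The numbers for CZ1 to CZ3 were 20, 39 and 37, and those for PZ1 to PZ3 were 84, 87 and 71. Each PZ library had more than each CZ library, also relative to the genes that reached 6 in it (4.48% to 5.55% in PZ and 1.52% to 2.9% in CZ). Depth was 144665 reads in CZ1, 64993 and 51659 in CZ2 and CZ3, and 58412 to 66596 in the PZ libraries. The zone sum that CZ2 and CZ3 were set against includes the deeper CZ1. The part of depth in the count was not tested.

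**Figure D4:**
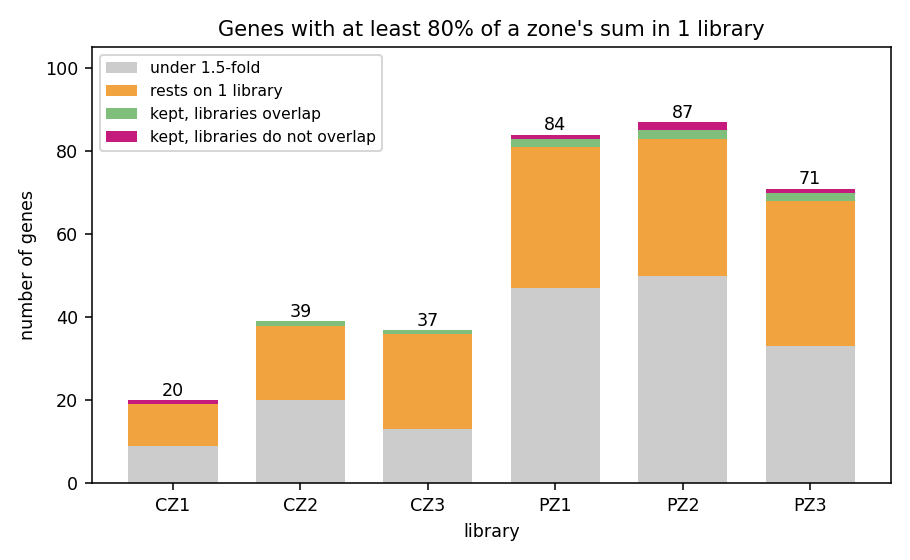
Number of genes (bars, vertical axis from 0) for which each of the 6 libraries held at least 80% of the sum of its zone and at least 6 normalized counts, with colours for the kind of difference. The PZ libraries stand at 84, 87 and 71 genes and the CZ libraries at 20, 39 and 37.

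Beside the 4 called genes described above, the largest of these values were seen once and hardly anywhere else. Solyc09g082110.2 had a normalized count of 330.1 in CZ3 and at most 2.00 in the other 5 libraries. Solyc05g010540.2 had 174.0 in PZ2, 0.29 in CZ1 and 0 in the other 4. Solyc12g005170.1 had 98.0 in CZ2 and was listed at 0 in every other library, LP included. In PZ1 the highest was 134.2 (Solyc05g051280.2, 0.58 to 4.25 in CZ), in CZ1 118.0 (Solyc04g008480.1, 1.48 to 6.17 in PZ) and in PZ3 102.1 (Solyc02g092700.2, 0 in the other PZ libraries). By limma with all libraries none of these 6 genes was called (adjusted p 0.0717 to 0.713), whereas edgeR on whole reads called all 6 (adjusted p 0.000182 to 0.00859).

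The nuclear genes for chloroplast proteins are the group for which the passage from CZ to PZ was studied. The study names 56 of them, chosen on these samples for their course along the apex, so their direction is not independent evidence. Of these, 40 reached a value of 6 and were tested. Several reached it only in PZ libraries and others only in CZ libraries, so the direction of these was partly set by this minimum. None of the 40 was called by limma, edgeR or DESeq2. At an unadjusted p of at most 0.05, 9 of the 40 were higher in PZ and 1 was lower, where 4.79% and 2.43% of all genes tested were. The difference was above 0 in 37 of the 40 tested against 55.3% of all genes tested, and in 49 of all 56 members against 54.0% of the 21188 genes with a read. The median difference of the 40 was 0.65 where that of all genes was 0.08. With TMM scaling it was 0.44 over the members that still reached the minimum, with 33 above 0. That of all genes was then −0.14, counted in the same way. The median was lowest without PZ3, at 0.46, and highest without CZ2, at 0.84.

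The libraries did not line up with the zones in this group. Summed over the 56 genes, the normalized counts were 275.8, 639.6 and 416.0 in CZ1 to CZ3 and 508.1, 664.8 and 789.0 in PZ1 to PZ3. CZ2 lay above PZ1 and near PZ2, so the zones overlapped. CZ1 was the lowest of the 6 libraries for 24 of the 56 genes and PZ3 the highest for 22. As a share of reads, the difference between zones was 0.397 percentage points (exact permutation test, two-sided p = 0.3, n = 3 per zone, the smallest possible being 0.1), and 0.213 to 0.621 when 1 library was left out. All 56 had reads in the CZ, 51 of them in each of the 3 CZ libraries.

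Photosystem II genes made up most of the members with a low unadjusted p. They encode antenna proteins that bind chlorophyll (LHCB) and subunits of the reaction centre and of the oxygen-evolving complex (PSB). Of 16 members 14 were tested, and 13 of these were above 0, where 55.3% of all genes tested were, with a median of 0.67. At an unadjusted p of at most 0.05 (limma), 6 were higher in PZ, where 4.79% of all genes tested were. These members were chosen by the study on these samples. PSBX (Solyc05g025600.1), a small reaction centre subunit, was at 8.94, 20.7 and 12.8 in CZ and at 23.1, 29.6 and 29.0 in PZ. The zones were separated, with a difference of 0.97 (standard error 0.36, adjusted p = 0.435). PSBO (Solyc02g090030.2), which stabilizes the manganese cluster that splits water, was at 3.17, 4.0 and 1.70 in CZ and at 6.94, 5.92 and 6.90 in PZ, again separated (difference 0.98, standard error 0.56, adjusted p = 0.703). The antenna gene LHCB1.3 (Solyc03g005770.1) had the largest difference of the block, 1.75 (standard error 0.65, adjusted p = 0.44), on values of 0.87, 3.33 and 0 in CZ and 6.17, 4.44 and 6.90 in PZ.

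The photosystem II members with the highest normalized counts overlapped between the zones. PSBR (Solyc07g066310.2), a subunit near the oxygen-evolving complex, was at 32.9, 79.4 and 76.6 in CZ and at 73.2, 115.5 and 88.3 in PZ. PZ1 lay below CZ2 and CZ3, and without CZ1 the difference of 0.62 dropped to 0.22. A neighbouring copy of LHCB1.3 (Solyc03g005760.1) was at 23.4, 46.7 and 48.5 in CZ and at 47.8, 44.4 and 93.1 in PZ, where PZ3 alone stood above CZ. Reads of such near-identical antenna copies may have been split between them. PSBO2 (Solyc02g065400.2), the other PSBO copy, had the lowest difference of the block, −0.14, which was 0.17 without CZ2 and 0.25 without PZ3.

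Photosystem I passes electrons from plastocyanin to ferredoxin. Of its 11 members 9 were tested, and 8 of these were above 0, where 55.3% of all genes tested were. The median of 0.68 was 0.31 without CZ1. LHCA4 (Solyc03g115900.2), an antenna protein of photosystem I, was at 4.33, 3.33 and 4.25 in CZ and at 4.63, 9.62 and 13.1 in PZ. PZ1 was barely above the CZ libraries, and the difference was 0.93 (standard error 0.50, adjusted p = 0.703). PSAN (Solyc08g013670.2), which helps plastocyanin dock, was at 6.92, 13.34 and 14.46 in CZ and at 18.5, 23.7 and 22.1 in PZ. Its libraries were separated, but the difference of 0.89 (adjusted p = 0.624) was 0.584 without CZ1, just under the size set here. PSAH (Solyc12g044280.1), where the mobile antenna docks, had the lowest difference, −0.32 (adjusted p = 0.953).

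The median was lowest for the carbon metabolism genes. All 6 tested of 10 were above 0, with a median of 0.27, none was separated, and with TMM scaling 3 were above 0. The small subunit of Rubisco, the CO2-fixing enzyme, is encoded by RBCS copies. RBCS (Solyc02g085950.2) was at 14.4, 79.4 and 27.2 in CZ and at 29.3, 29.6 and 37.2 in PZ, with CZ2 the highest library and a difference of 0.0068. RBCS (Solyc03g034220.2) was at 26.8, 74.0 and 45.9 in CZ and at 47.03, 58.5 and 73.8 in PZ, with CZ2 again at the top and a difference of 0.37 (adjusted p = 0.803). The largest difference of the block was that of a malate dehydrogenase gene (Solyc11g007990.1), 0.79, which did not reach 6 in these libraries, and the lowest was −0.42 for FBPASE (Solyc05g052600.2), a Calvin cycle phosphatase that was not tested either.

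Of 6 genes for plastid ribosomal proteins 3 were tested. The highest was RPL6 (Solyc12g100160.1), a protein of the large subunit, at 3.17, 4.0 and 0.85 in CZ and 5.40, 7.40 and 4.14 in PZ. Its libraries were separated by a narrow margin, and the difference of 0.95 (adjusted p = 0.75) rested on CZ3. The lowest was PSRP-3 (Solyc05g009570.2) of the small subunit, at −0.16, which was not tested. The 3 members with no known function had differences of 0.62 to 0.89, and that of Solyc02g049070.2 (0.89) came from 34.5 in PZ3 with 0 and 2.22 in the other PZ libraries.

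Of the remaining 10 chloroplast genes 6 were tested. At an unadjusted p of at most 0.05 (limma), 2 were higher and 1 was lower, where 4.79% and 2.43% of all genes tested were. GS2 (Solyc01g080280.2), the plastid glutamine synthetase that assimilates ammonium, was at 2.31, 4.67 and 3.40 in CZ and at 12.3, 9.62 and 11.7 in PZ. The PZ libraries were even and well above every CZ library, with a difference of 1.48 (standard error 0.53, unadjusted p = 0.00523, adjusted p = 0.379). The LP libraries, at 10.4, 10.9 and 6.55, were no higher than those of PZ. PRXIIE (Solyc10g083650.1), a plastid peroxiredoxin that removes peroxides, was at 4.04, 12.7 and 1.70 in CZ and at 0, 0.74 and 1.38 in PZ. It was the 1 member lower in every PZ library, with a difference of −1.83 (standard error 0.76, adjusted p = 0.548). FED (Solyc10g044520.1), the ferredoxin that takes electrons from photosystem I, had an unadjusted p of 0.0481 (difference 0.75), but CZ2 at 23.3 lay among PZ libraries at 10.0, 25.9 and 28.3.

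**Figure D5:**
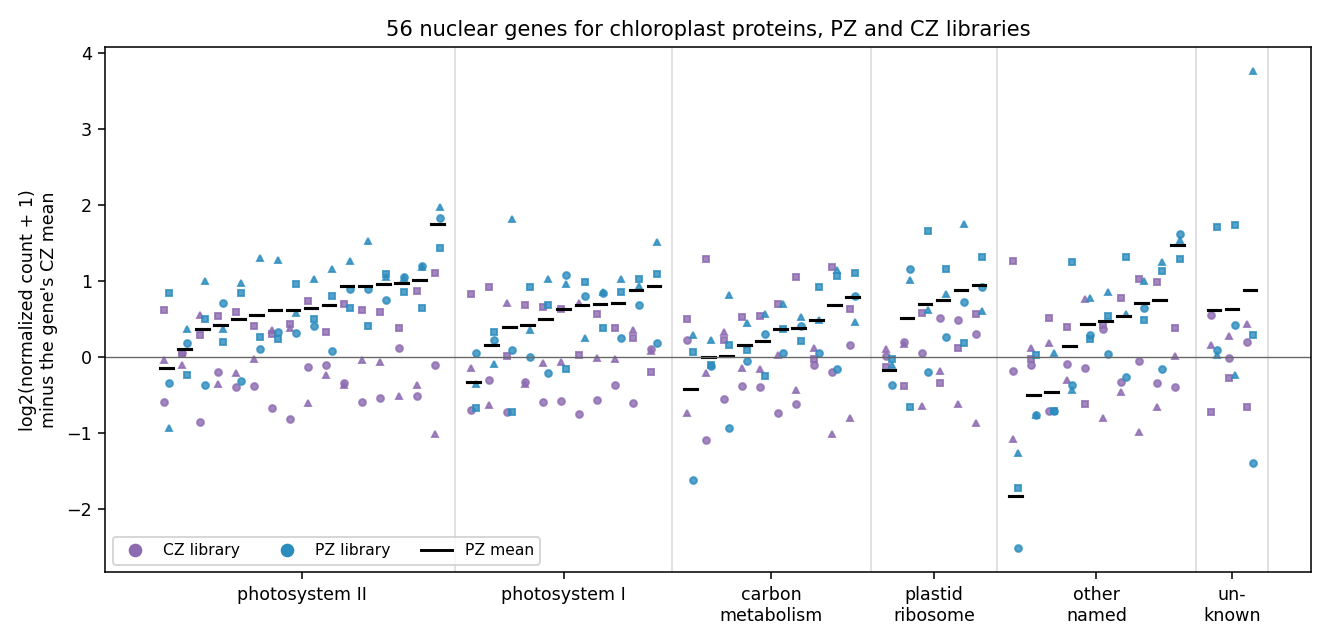
Values of 56 nuclear genes for chloroplast proteins in the CZ and PZ libraries, as log2(normalized count + 1) minus the mean of the gene's CZ libraries, grouped by function and sorted within a group; symbols mark the library number and black bars the PZ mean, which is the difference between the zones. The bars lie above 0 for 49 of the 56 genes, with CZ and PZ symbols overlapping for most.

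Transcription factors and developmental genes named by the study, also chosen on these samples, numbered 12, and 11 were tested. None was called by limma, edgeR or DESeq2. At an unadjusted p of at most 0.05, 1 was higher and 2 were lower in PZ, where 4.79% and 2.43% of all genes tested were. The lower ones regulate growth phase or hormone responses. AP2 (Solyc03g123430.2), an ethylene response transcription factor, was at 8.37, 8.0 and 6.81 in CZ and at 3.85, 1.48 and 2.07 in PZ. Every CZ library was above every PZ library, with a difference of −1.39 (standard error 0.69, adjusted p = 0.691), and in LP it was at 1.3, 1.21 and 2.18. FD (Solyc02g083520.2), a bZIP factor that acts in the passage to flowering, was at 16.2, 27.3 and 25.5 in CZ and at 20.8, 6.66 and 8.28 in PZ. PZ1 lay inside the CZ range, and the difference of −1.02 (standard error 0.45, adjusted p = 0.643) stayed at −0.72 or further from 0 without any single library. The higher one, GID1C (Solyc01g098390.2), a gibberellin receptor, was at 0.29, 1.33 and 0.85 in CZ and at 0.77, 19.3 and 4.83 in PZ, with PZ1 inside the CZ range (difference 1.74, adjusted p = 0.666). The study describes this receptor as down-regulated between the peripheral and central zones, whereas the mean here was higher in PZ.

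Genes that mark meristem and leaf did not separate PZ from CZ in these libraries. STM (Solyc02g081120.2), a homeobox factor that keeps meristem cells undifferentiated, was at 9.81, 4.67 and 17.0 in CZ and at 12.3, 1.48 and 4.83 in PZ. The zones overlapped, both had libraries far above LP at 0.60 to 1.3, and the difference of −0.84 (adjusted p = 0.813) was −0.23 without PZ2. CUC2 (Solyc07g062840.2), which sets boundaries between meristem and organs, was at 15.6, 20.01 and 7.66 in CZ and at 15.4, 18.5 and 16.6 in PZ, also above LP at 2.59 to 6.55. YABBY1 (Solyc01g091010.2), a factor of the abaxial side of leaves, was at 14.4, 6.67 and 1.70 in CZ and at 6.94, 14.8 and 11.7 in PZ. CZ1 nearly reached the highest PZ library, and the difference of 0.77 (adjusted p = 0.712) was 0.10 without CZ3. YABBY3 (Solyc08g079100.2) was at 3.17, 4.0 and 0.85 in CZ and at 9.25, 8.14 and 2.07 in PZ, with PZ3 inside the CZ range.

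The other members of this list had differences under 1.5-fold on the log2(normalized count + 1) scale or were not tested. SVP (Solyc04g076280.2), a MADS factor that delays flowering in Arabidopsis, was at 6.92, 10.0 and 11.1 in CZ and at 6.17, 5.92 and 5.52 in PZ. Its libraries were separated, with a difference of −0.57 (adjusted p = 0.874). The ratio of its mean normalized counts, CZ over PZ, was 1.59. A different FD copy (Solyc02g061990.2) was at −0.46, and at 0.20 without PZ3. SPT (Solyc02g093280.2), a bHLH factor of floral organ growth, had a difference of −0.42, and MDR1 (Solyc02g087870.2), an auxin efflux transporter, one of 0.42 that came from 10.3 in PZ3 beside 2.31 and 1.48. CRK (Solyc01g090450.2) stayed under 2 in all 6 libraries and was not tested.

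A readable description was at hand for 1998 genes of chromosome 0 and part of chromosome 1, of which 97 were tested. None was called by limma, 8 had an unadjusted p of at most 0.05 (7 higher and 1 lower), where 7.22% of all genes tested did, and 11 differed in all 3 libraries, 7 higher and 4 lower in PZ, where 7.49% of all genes tested did. The first of these shares is near that of all genes. An enoyl reductase gene (Solyc01g006450.2) had the largest of these differences, 1.78 (standard error 0.54, adjusted p = 0.151), with 3.46, 6.67 and 1.70 in CZ and 7.71, 29.6 and 13.1 in PZ. Every PZ library was above the CZ libraries, PZ2 by far the most. Jasmonate ZIM-domain protein 3 (Solyc01g005440.2), a repressor of jasmonate responses, was at 2.88, 5.34 and 1.70 in CZ and at 6.94, 11.9 and 9.65 in PZ (difference 1.34, adjusted p = 0.624). A zinc finger CCCH protein (Solyc01g008600.2) was at 4.33, 3.33 and 0 against 5.40, 5.92 and 8.28 (difference 1.38, adjusted p = 0.661).

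A keyword search of the descriptions gave 2 genes for chromatin and DNA, both weakly expressed. It missed others of this kind, such as replication factor C subunit 5 (Solyc01g020440.2, difference −0.30) and a cytosine-specific methyltransferase (Solyc01g006100.2, 0.22). Other cell cycle genes of the genome were not examined. Cyclin B1 (Solyc01g009040.2), which drives entry into mitosis, was at 2.31, 1.33 and 0.85 in CZ and at 9.25, 2.96 and 2.76 in PZ. The libraries were separated, but PZ1 was far above PZ2 and PZ3, and the difference was 1.14 (standard error 0.75, adjusted p = 0.775). A gene described as DNA polymerase IV (Solyc01g034150.2) was at 0.58, 0 and 0.85 in CZ and at 1.54, 1.48 and 13.8 in PZ, where PZ3 held 82.0% of the sum.

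Genes described as ribosomal proteins, which build the machinery of translation, lay below 0. This held for all 6, their median being −0.45 and their values lying between −1.26 and −0.07, and 3 of the 6 were separated, all lower in PZ, where 55.3% of all genes tested were above 0 and 4.23% were separated and lower. All 6 were also below 0 with TMM scaling, where the median was −0.69, and 1 was above 0 without CZ1, CZ3 or PZ3. None was called and 1 had an unadjusted p of at most 0.05. This was Solyc01g009520.2, at 11.8, 14.0 and 10.2 in CZ and at 5.40, 9.62 and 2.07 in PZ, with every PZ library lower (difference −1.12, standard error 0.50, adjusted p = 0.643). Solyc01g010540.2 was at 11.0, 6.0 and 5.10 in CZ and at 3.85, 0.74 and 3.45 in PZ, also separated (difference −1.26, adjusted p = 0.703). The member with the highest normalized counts, a gene for ribosomal protein S27 (Solyc01g008080.2), was at 58.3, 72.0 and 98.7 in CZ and at 56.3, 62.9 and 60 in PZ, overlapping (difference −0.32, adjusted p = 0.844).

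The other description groups held 1 to 9 genes each with no call. All 4 genes of the ubiquitin and proteasome group were below 0 (median −0.42) and none was separated. Of 4 genes for RNA binding and splicing 2 were on each side, and the largest, an ATP-dependent RNA helicase (Solyc01g006970.2), had 46.6 in PZ2 with 0 and 2.07 in the other PZ libraries and 0 to 1.33 in CZ. It was the 1 described gene that edgeR called, on a single library. Among plastid-encoded genes 2 reached the minimum, clpP, which encodes a protease subunit, with a difference of −0.33 and ycf1, which encodes a part of the protein import machinery, with one of 0.27, both with overlapping libraries. Reads on the 141 plastid genes made up 0.0408% to 0.0785% of the reads of the 6 libraries.

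The genes that differed in all 3 libraries were spread over the genome. By chromosome they were 4.08% of the genes tested on chromosome 10 and 9.78% on chromosome 12, with the other 10 chromosomes between these and no member on chromosome 0.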

How the data were processed

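Per the labels and the methods of the study, Bowtie2 2.1.0 placed the 36 bp inserts on the tomato (SL 2.5) and chloroplast genomes by local alignment, and they were counted per gene with a script based on HTSeq and analysed with DESeq2 1.4.0. The normalization and the treatment of molecular identifiers are not given in the sources used here. The values deposited by the authors are a signal, normalized counts per gene; all were whole multiples of 1 step per library (tolerance 0.0051), and dividing by that step recovered whole reads. 100% of the values came out whole. No column was without a sample (0).

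For this re-analysis log2(normalized count + 1) of the 9 libraries was modelled in limma 3.58.1 (R 4.3.3) by zone alone, with a variance trend, for genes with at least 6 in at least 1 CZ or PZ library. edgeR 4.0.16 (quasi-likelihood, 27 calls) and DESeq2 1.42.0 were alternatives on whole reads. Scripts were tested on simulated data. Figures were drawn with matplotlib 3.10.9.

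The genes named were, by rule, all called genes, the largest differences in each direction among genes differing in all 3 libraries (with and without a readable description), the 2 highest single-library genes of each library, and the genes the study tabulates, from which the text gives a selection; 5 further genes were chosen after their values were seen. The genes compared, the lists and the tests were chosen with earlier results of these data known. No sequence was printed.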

Additional observations from a re-analysis of the deposited data

How the results depend on the processing

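The 13 calls (9 higher, 4 lower) became 5 (4 and 1) with a pseudocount of 0.5, 2 (1 and 1) with a filter on a zone mean of at least 6 or on a mean of at least 3 over the 6 libraries, 8 (5 higher) with no filter, 8 (4 higher) with TMM scaling, 1 (0 and 1) with each gene's own spread, 27 (18 and 9) with edgeR and 2 (1 and 1) with DESeq2. The 1 gene called with its own spread was not among the 13. Without a variance trend limma called 0 genes (0 and 0), with 241 at an unadjusted p of at most 0.05. With all libraries that threshold, added after the data were seen, gave 244 genes. The lists were called at 0 genes throughout, except that edgeR called 1 described gene. The causes were not tested. The replicate block gave 23 calls (16 and 7). Deviations of same-numbered CZ and PZ libraries correlated at 0.061 to 0.115, and all 6 libraries correlated best with their own number. The labels state no pairing, while the study shows the zones outlined on a single section. Whether equal numbers share plants is not given in the sources used here. Without 1 of the 9 libraries in turn the calls were 4 to 20, the higher ones 3 to 15 and the lower ones 1 to 5.

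Separated genes were 153 with the zone-mean filter, 1032 with no filter and 110 at 2-fold. Genes with overlapping libraries were 107 with a pseudocount of 2, then 91, 641 and 38 in the same order, and genes resting on 1 library 370, 3250 and 404.

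Among single genes, 1313 of the values under alternatives kept their call and sign, 111 lost a call, 19 gained one and 13 changed sign, none of the last being called. RBCS Solyc02g085950.2 went to −0.0026 with a pseudocount of 2, −0.082 with equal totals, −0.24 with TMM scaling, −0.40 with edgeR and −0.39 with DESeq2. It ranged from −0.54 to 0.66 without 1 library. The corresponding ranges were, for PSBO2, −0.63 to 0.25, for CUC2 −0.070 to 0.57, for FD Solyc02g061990.2 −1.25 to 0.20 and for Solyc04g008480.1 −2.59 to 0.062. A value of 6 stood for 8 or 9 reads outside CZ1, which limits the precision of single values; the part of depth in missed calls was not tested.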
